A study of Homo sapiens with 15 samples.

Results

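The enzymes that remove reactive oxygen species and use or regenerate glutathione were followed in human MDA-MB-231 cells after CtBP2 knockdown and after exposure to HIPP or P4. The 36 genes were chosen by name and function, not by their values: 3 superoxide dismutases, catalase with 5 glutathione peroxidases, 6 peroxiredoxins, 6 genes of the thioredoxin and glutaredoxin system, the glutathione reductase and glutathione synthetase genes, and 13 glutathione transferases. They were read by 51 of the 41000 probes of the array and are 36 of the 30992 genes measured. MDA-MB-231 is an established triple-negative breast cancer line. In the shCtBP2 group the line carried a stably transfected short hairpin RNA plasmid against CtBP2, an NADH-binding transcriptional co-regulator, and had been selected with puromycin. HIPP and P4 are small molecules that the labels name as CtBP2 inhibitors, both sodium phenylpropanoates, the first with a hydroxyimino group and the second with a hydrazone group. Each treatment had 5 biological replicates collected at 24 h. Every array set the treated RNA (Cy5) against RNA of untreated MDA-MB-231 cells (Cy3). The study's methods describe a scrambled control for the knockdown, whereas the labels give untreated cells on all 15 arrays.

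Superoxide dismutases turn superoxide into hydrogen peroxide, which catalase, the glutathione peroxidases and the peroxiredoxins then reduce. Glutathione peroxidases draw their electrons from glutathione and most peroxiredoxins draw them from thioredoxin, and both carriers are reduced again at the expense of NADPH, by glutathione reductase and by the thioredoxin reductases. Glutathione transferases couple glutathione to reactive molecules, and TXNIP, the thioredoxin-interacting protein, binds thioredoxin.

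Values are log2 ratios of treated over control signal, so 1 is a doubling and -1 a halving, and the error given is the SD over 5 arrays. Adjusted p-values come from limma and are corrected over all genes tested in a treatment. A gene was called where this p was under 0.05, and a second threshold added the fold change of the study's methods (1.5-fold for shCtBP2, 2.5-fold for HIPP and 1.8-fold for P4). The dyes were not swapped, so a gene's dye bias is part of each single ratio, while a bias equal on all arrays drops out of a difference between treatments. The labels do not say whether the control RNA was 1 extract or several, and do not give the doses. CTBP2 itself lay at -0.36, -0.35, -0.59, -0.44 and -0.29 on the shCtBP2 arrays, below the control on 5 of 5 (-0.41 ± 0.11, adjusted p = 0.0602). Of the markers expected in this line, 5 of 5 (VIM, CD44, CAV1, AXL and LGALS1) were well above background in the control channel of all 15 arrays, and PGR and CDH1 on none. EPCAM, GATA3 and KRT19, expected low, were well above background on 15 and ESR1 and ESRP1 on 11 and 14. Of the 8 markers of other cell types, PECAM1 was so on 15, PTPRC on 1 and ALB on 0. Of the 36 genes, 32 were well above background in both channels of all 15 arrays, and the exceptions were GPX2, GPX7, GSTM2 and GSTT1.

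After CtBP2 knockdown, SOD3, GLRX and MGST3 rose and TXN and MGST1 fell. That is 5 called of 24 tested, against 13.4% of all genes tested, with 3 higher against 6.52% and 2 lower against 6.87%. Without shCtBP2 replicate 4 or replicate 5, 2 were called. None of the 5 also reached the 1.5-fold threshold, so that 0 of 24 passed both, against 6.55% of all genes; by limma, 1 of the 24, GPX7, had an unadjusted p under 0.05 with that fold change. The count was also 0 with the methods' t-test and after normexp and loess. It was 1 with signals centred on the array median, the series' value table, the brightest probe or the replicate block. With the slide as a block it was 2. The t-test was adjusted here over all genes tested, whereas the methods first removed those under the fold threshold. A slide-block value is set at the average of the 4 slides. None of the treatments lay on all of them, so it draws on arrays of other treatments and can fall outside a treatment's own.

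With HIPP, 18 of 28 tested were called, against 48.7% of all genes, 12 of them lower (23.9% of all genes) and 6 higher (24.8%). Only TXNIP also passed the 2.5-fold threshold, which 7.05% of all genes did. With P4, 13 of 26 tested were called, against 31.8% of all genes, 7 lower (14.8%) and 6 higher (17.0%). TXNIP, GSR, TXNRD2 and PRDX3 also passed the 1.8-fold threshold, against 8.46% of all genes, and 2 of them did without P4 replicate 5.

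The genes not tested had been removed, per treatment, by a filter on low variability that follows the methods, and a gene that responds varies more, so the share called among those left is no support. With all 36 tested, the calls were 5 for shCtBP2 against 11.4% of all genes, 20 for HIPP against 45.0% and 14 for P4 against 29.6%. The median log2 ratio of the 36 was 0.014, 0.0036 and 0.0037 with shCtBP2, HIPP and P4, beside 0.023, 0.075 and 0.078 for all genes measured.

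**Figure D1:**
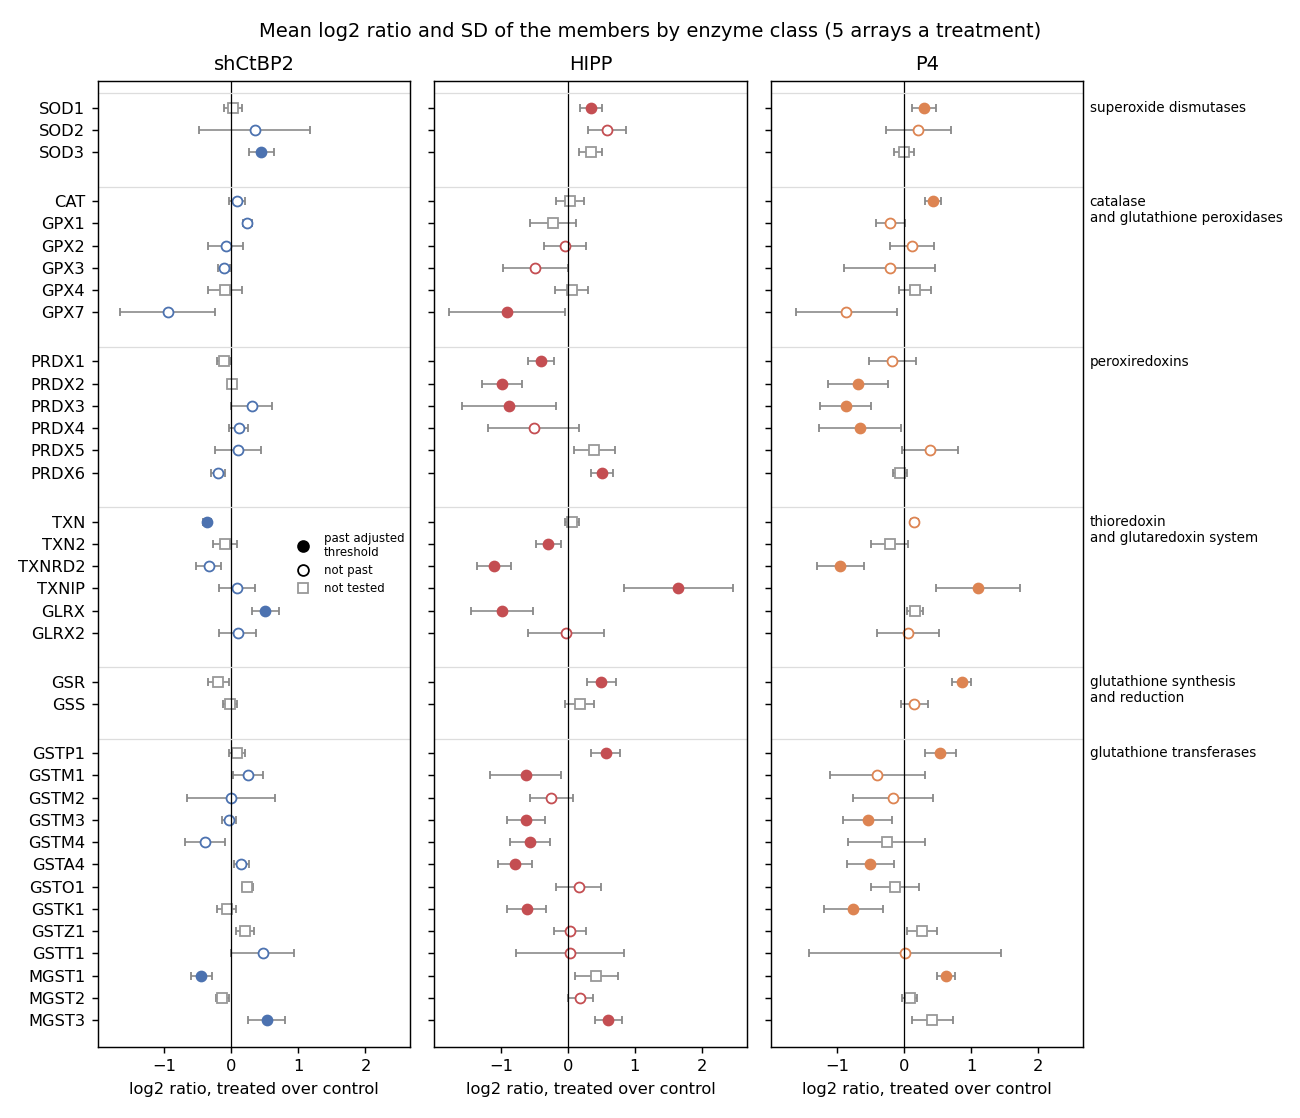
Mean log2 ratio (x axis) of each of the 36 genes (y axis, by enzyme class) in the 3 treatments, with the SD over 5 arrays as bars; filled circles passed the adjusted threshold, open circles did not, and grey squares were not tested. The called means run from -0.45 (MGST1) to 0.53 (MGST3) with shCtBP2, from -1.10 (TXNRD2) to 1.65 (TXNIP) with HIPP and from -0.96 to 1.10 (the same genes) with P4.

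Among the superoxide dismutases, SOD1, the cytosolic copper and zinc enzyme, rose slightly with both compounds, and SOD3, the secreted enzyme, rose after knockdown. SOD1 lay between 0.19 and 0.62 on the HIPP arrays (0.34 ± 0.17, adjusted p = 0.00539) and between 0.05 and 0.52 on the P4 arrays (0.30 ± 0.18, adjusted p = 0.0213), above the control on every array of both. SOD3 lay between 0.19 and 0.67 on the shCtBP2 arrays (0.44 ± 0.19, adjusted p = 0.0053). With the slide as a block, adjusted p was 0.0859, 0.541 and 0.131 for these 3 values. With HIPP, SOD3 was at 0.34 ± 0.17, above the control on 5 of 5 arrays; the variability filter had removed it there, and with all 36 tested it was called (adjusted p = 0.00663). SOD2, the mitochondrial enzyme, was at 0.59 ± 0.28 with HIPP and did not pass (adjusted p = 0.057). Its probe 2, at 0.94 ± 0.55, was well above background in 1 treated and 0 control channels, probe 1 was at 0.24, and with normexp and loess the gene was at 0.17 and was called (adjusted p = 0.048).

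Catalase and the glutathione peroxidases gave 1 call of 3 tested with HIPP, 1 of 5 with P4 and 0 of 5 after knockdown. Of all genes tested, 48.7%, 31.8% and 13.4% were called. The knockdown count was also 0 of 5 by the methods' t-test. By limma and by that t-test, 1 and 2 had an unadjusted p under 0.05. After knockdown, GPX1 was called with normexp and loess (0.34, adjusted p = 0.0443) and GPX7 with the series' value table or the replicate block. CAT, which breaks hydrogen peroxide down in peroxisomes, rose with P4 and lay between 0.31 and 0.61 on the 5 arrays (0.42 ± 0.12, adjusted p = 0.00229), and its mean with HIPP was 0.03 ± 0.21. GPX7, a peroxidase of the endoplasmic reticulum, had log2 ratios of -1.95, -1.77, -0.29, -0.34 and -0.19 with HIPP, below the control on 5 of 5 arrays (-0.91 ± 0.87, adjusted p = 0.0296). The first 2 arrays stood far below the other 3. Its treated channel was not well above background on any array of any treatment, and its control channel on 1 of 5 in each, so no size of a change can be given for it. The call was lost with normexp and loess (-0.06, adjusted p = 0.245), the brightest probe (-0.53, adjusted p = 0.196) and the slide as a block (-0.65, adjusted p = 0.21), and without HIPP replicate 1 or 2. The means after knockdown (-0.95 ± 0.71, adjusted p = 0.0642) and with P4 (-0.86 ± 0.76, adjusted p = 0.0522) did not pass, the latter being called with the brightest probe (adjusted p = 0.0335). Across the remaining members of the class no mean ratio passed, and the largest of these was GPX3, an extracellular peroxidase, at -0.48 ± 0.49 with HIPP.

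With HIPP, PRDX1, PRDX2 and PRDX3 fell and PRDX6 rose, out of 5 tested; with P4, PRDX2, PRDX3 and PRDX4 fell, out of 5 tested; after knockdown none of 4 tested passed, by limma or by the methods' t-test, with 1 at an unadjusted p under 0.05 in each. With the slide as a block, PRDX3 (1.13, adjusted p = 0.0265) and PRDX6 (-0.44, adjusted p = 0.0489) were called after knockdown. Both values lay outside the range of the knockdown arrays, -0.02 to 0.65 for PRDX3 and -0.33 to -0.08 for PRDX6. Of all genes tested, 48.7%, 31.8% and 13.4% were called with HIPP, P4 and shCtBP2, and 23.9% were called lower with HIPP and 14.8% with P4. PRDX2, a cytosolic peroxiredoxin, lay at -0.64, -1.21, -0.67, -1.23 and -1.17 with HIPP. On the P4 arrays it lay at -1.37, -0.41, -0.19, -0.65 and -0.81, and on the shCtBP2 arrays between -0.03 and 0.02. All 10 arrays with a compound were thus below all 5 arrays of the knockdown. The means were -0.98 ± 0.30 with HIPP (1.98-fold lower, adjusted p = 4.1e-05) and -0.69 ± 0.45 with P4 (1.61-fold lower, adjusted p = 0.00204). With the slide as a block the P4 call was lost (-0.95, adjusted p = 0.0608), as was that of PRDX1 with HIPP (-0.39, adjusted p = 0.0573).

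PRDX3, the mitochondrial peroxiredoxin, had log2 ratios of -0.07, -0.82, -0.50, -1.95 and -1.03 with HIPP and of -0.97, -0.32, -0.68, -1.11 and -1.29 with P4. On the shCtBP2 arrays it lay at 0.65, 0.59, 0.17, 0.11 and -0.02. The knockdown arrays lay above every array with a compound. The means were -0.88 ± 0.70 with HIPP (1.83-fold lower, adjusted p = 0.00284) and -0.88 ± 0.38 with P4 (1.83-fold lower, adjusted p = 0.00549). With the methods' t-test, adjusted here over all genes tested, neither was called (adjusted p = 0.118 and 0.0751). After knockdown the mean was 0.30 ± 0.30 (adjusted p = 0.378). With the slide as a block it was 1.13 (adjusted p = 0.0265), above every knockdown array.

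These means hide a disagreement between the 2 probes of PRDX3, which the array's annotation places on opposite strands in build hg17. Probe 1 lies at chr10:120919922-120919981 on the plus strand and probe 2 at chr10:120921907-120921966 on the minus strand. RefSeq lists PRDX3 on the minus strand in GRCh38.p14, the strand of probe 2, but strands were not compared between the builds. The first 30 of their 60 bases are given because the direction with HIPP and the size with P4 turn on which of them is read:
PRDX3 probe 1: actcagcttctctctcttgttaatctcaat
PRDX3 probe 2: aacatcgcactcttgtcagacttaactaag
Probe 2 lay at -0.78, -2.23, -1.49, -3.73 and -2.63 with HIPP, 4.50-fold lower in the mean (-2.17 ± 1.12). With P4 it lay at -2.14, -0.33, -0.70, -2.09 and -2.04, 2.75-fold lower (-1.46 ± 0.87). Arrays 1, 4 and 5 of P4 were the low ones. Probe 1 was at 0.42 ± 0.34 with HIPP and at -0.29 ± 0.34 with P4. After normexp background correction and loess, probe 1 was near 0 in both (0.07 and -0.05) and probe 2 stayed low (-2.05 and -1.47). With each gene read by its brightest probe, the adjusted p for PRDX3 was 0.000106 with HIPP and 0.00515 with P4.

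**Figure D2:**
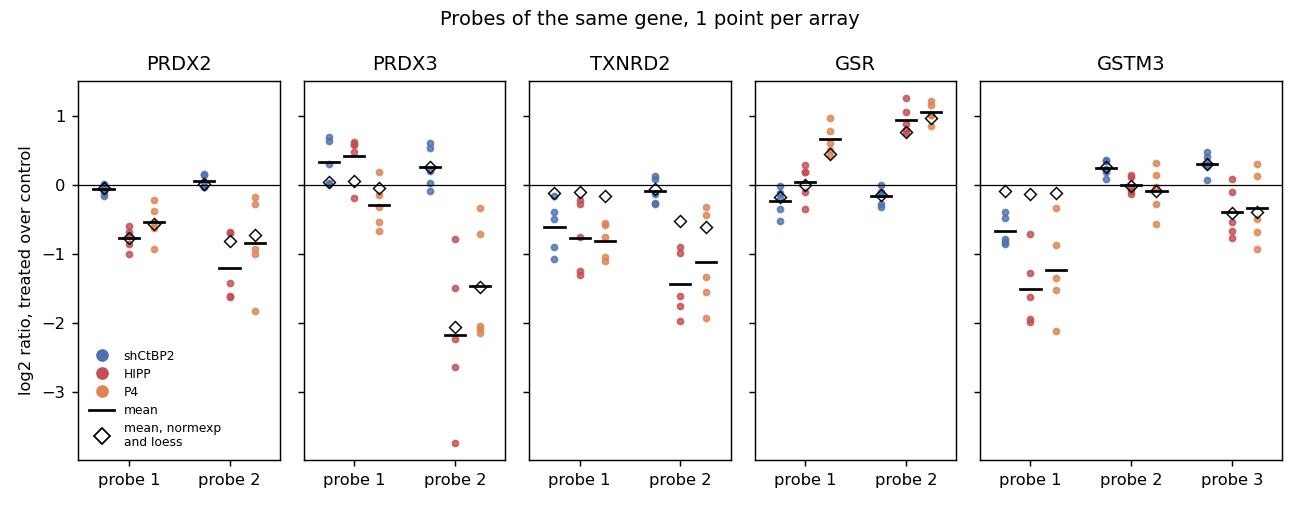
Log2 ratio (y axis) of each probe of 5 genes that the array reads with several probes, 1 point per array, with the mean as a bar and the mean after normexp background correction and loess as a diamond. PRDX3 probe 2 averages -2.17 with HIPP where probe 1 averages 0.42, GSR probe 1 averages 0.05 with HIPP where probe 2 averages 0.95, and the bars and diamonds part most at TXNRD2 and at GSTM3 probe 1.

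PRDX6, a peroxiredoxin that takes its electrons from glutathione, moved the other way from PRDX1, PRDX2 and PRDX3 with HIPP. It lay between 0.38 and 0.76 on the 5 HIPP arrays (0.51 ± 0.16, adjusted p = 9.87e-05), whereas with P4 it lay between -0.18 and 0.10 (-0.06 ± 0.11, not tested). PRDX4, the peroxiredoxin of the endoplasmic reticulum, lay at -1.25, 0.16, -0.17, -1.05 and -0.97 with P4, with arrays 1, 4 and 5 again low (-0.66 ± 0.61, adjusted p = 0.037), and was not called with normexp and loess (-0.60, adjusted p = 0.053). PRDX5 gave no call, with a mean of 0.10 after knockdown, 0.40 with HIPP (not tested) and 0.39 with P4.

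By the mean over probes, the largest changes among the 36 genes with HIPP and P4 were in the thioredoxin system, though PRDX3 probe 2 changed more. After knockdown the largest was that of GPX7 (-0.95, not called), and the largest called was that of MGST3 (0.53). TXNIP had log2 ratios of 1.66, 2.18, 2.21, 0.26 and 1.94 with HIPP, a 3.14-fold rise (1.65 ± 0.81, adjusted p = 8.48e-05). Replicate 4 stood far below the other 4, and without it the mean was 2.00. With P4 the ratios were 0.57, 2.17, 1.10, 0.71 and 0.97, a 2.15-fold rise (1.10 ± 0.63, adjusted p = 0.00454), with every array above the control and replicate 2 the highest. On the shCtBP2 arrays TXNIP lay between -0.32 and 0.34 (0.08 ± 0.26, adjusted p = 0.859). With the slide as a block the P4 value was 0.51 and was not called (adjusted p = 0.506).

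By the mean over its probes, TXNRD2, the mitochondrial thioredoxin reductase, was lower on every array of all 3 treatments. It lay at -1.14, -1.49, -0.82, -0.93 and -1.09 with HIPP and at -1.25, -0.49, -0.71, -1.04 and -1.29 with P4. The means were 2.14-fold lower (-1.10 ± 0.25, adjusted p = 5.15e-06) and 1.94-fold lower (-0.96 ± 0.35, adjusted p = 7.6e-05). After knockdown the mean was -0.34 ± 0.18 and did not pass (adjusted p = 0.0868), and with normexp and loess it was -0.08 (adjusted p = 0.524). Probe 1 was then at -0.60 ± 0.37. Probe 2, the brightest, was at -0.08 ± 0.19 (adjusted p = 0.832) and above the control on replicates 2 and 3 (0.10 and 0.14). With HIPP and P4, probe 1 was at -0.76 and -0.80, and probe 2 at -1.43 and -1.11. With normexp and loess the falls were smaller, -0.31 with HIPP (adjusted p = 0.00256) and -0.38 with P4 (adjusted p = 0.00085), and both were still called.

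GLRX, the cytosolic glutaredoxin, which uses glutathione to reduce mixed disulfides, moved in opposite directions after knockdown and with HIPP. It lay at 0.60, 0.78, 0.24, 0.49 and 0.44 on the shCtBP2 arrays and at -0.72, -0.59, -0.91, -0.95 and -1.77 on the HIPP arrays. All knockdown arrays were above the control and all HIPP arrays below it. The mean fell 1.99-fold with HIPP (-0.99 ± 0.46, adjusted p = 2.76e-05) and rose 1.42-fold after knockdown (0.51 ± 0.20, adjusted p = 0.022). With P4 it was 0.16 ± 0.12 and was not tested. The knockdown call was lost without shCtBP2 replicate 1, 2, 4 or 5. TXN, the cytosolic thioredoxin, fell after knockdown and lay between -0.45 and -0.27 (-0.36 ± 0.06, adjusted p = 0.00314), a call lost with the slide as a block (-0.31, adjusted p = 0.121). With P4 it was at 0.15 ± 0.05 (adjusted p = 0.103) and was called with normexp and loess (0.27, adjusted p = 0.000482). TXN2, the mitochondrial thioredoxin, fell with HIPP (-0.29 ± 0.19, adjusted p = 0.033), and that call was lost in the same way (-0.21, adjusted p = 0.268). GLRX2, at -0.02 ± 0.57 with HIPP, had the smallest tested ratio of the class.

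GSR, glutathione reductase, rose with both compounds. It lay at 0.50, 0.62, 0.39, 0.77 and 0.21 with HIPP and at 0.69, 0.83, 0.82, 0.90 and 1.07 with P4, above the control on all 10 arrays. On the shCtBP2 arrays it lay between -0.41 and 0.00097, below all of them (-0.20 ± 0.15, not tested). The rise was 1.41-fold with HIPP (0.50 ± 0.22, adjusted p = 0.000448) and 1.82-fold with P4 (0.86 ± 0.14, adjusted p = 1.49e-05). Its 2 probes gave like values with P4, 0.67 ± 0.22 and 1.06 ± 0.14, but with HIPP 1 was at 0.05 ± 0.26 and the other at 0.95 ± 0.21. GSS, glutathione synthetase, was at 0.18 ± 0.21 with HIPP, where it was not tested, and at 0.15 ± 0.20 with P4 (adjusted p = 0.233).

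Calls among the glutathione transferases went both ways. With HIPP, GSTP1 and MGST3 rose and GSTM1, GSTM3, GSTM4, GSTA4 and GSTK1 fell, out of 12 tested. With P4, GSTP1 and MGST1 rose and GSTM3, GSTA4 and GSTK1 fell, out of 8 tested. After knockdown, MGST3 rose and MGST1 fell, out of 8 tested. Of all genes tested, 48.7%, 31.8% and 13.4% were called with HIPP, P4 and shCtBP2.

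GSTA4, an alpha-class enzyme that conjugates 4-hydroxynonenal, a product of lipid peroxidation, lay at -0.46, -1.05, -0.61, -0.79 and -1.03 with HIPP. On the P4 arrays it lay at -1.06, -0.36, -0.10, -0.52 and -0.50, and on the shCtBP2 arrays between -0.05 and 0.24. No array with a compound reached the lowest knockdown array. The falls were 1.72-fold with HIPP (-0.79 ± 0.26, adjusted p = 8.45e-05) and 1.42-fold with P4 (-0.51 ± 0.35, adjusted p = 0.00561), the latter not called with the slide as a block (-0.57, adjusted p = 0.154).

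GSTK1, the mitochondrial and peroxisomal kappa-class enzyme, lay at -0.37, -0.82, -0.24, -0.83 and -0.83 with HIPP and at -1.41, -0.38, -0.31, -0.78 and -0.92 with P4. All 10 were below the lowest of the shCtBP2 arrays, which lay between -0.21 and 0.10. The falls were 1.53-fold (-0.62 ± 0.29, adjusted p = 0.00234) and 1.69-fold (-0.76 ± 0.45, adjusted p = 0.00115), the P4 call being lost with the slide as a block (adjusted p = 0.0522).

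The mu-class genes lie side by side on chromosome 1 and their sequences are close, so probes may read more than 1 of them. GSTM1 lay at -0.03, -0.79, -0.12, -1.20 and -1.01 with HIPP, 1.55-fold lower (-0.63 ± 0.53, adjusted p = 0.0283). Arrays 1 and 3 were near the control. The call was lost with normexp and loess (-0.40, adjusted p = 0.114), with the slide as a block (-0.73, adjusted p = 0.0535) and without HIPP replicate 2, 4 or 5. Its probe, at chr1:109943714-109943773 in hg17, also lists a transcript of GSTM4, and a probe listed for GSTM4, at chr1:109945123-109945182, lies next to it. GSTM4 was at -0.56 ± 0.30 with HIPP (adjusted p = 0.0163), and was not called with normexp and loess (-0.29, adjusted p = 0.0701) or with the slide as a block (-0.43, adjusted p = 0.176). After knockdown GSTM4 was at -0.39 ± 0.29 (adjusted p = 0.154) and was called with the brightest probe (-0.59, adjusted p = 0.0188). That probe is the one next to the GSTM1 probe, and the other GSTM4 probes were at -0.25 ± 0.34 and -0.35 ± 0.30.

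GSTM3 lay at -0.16, -0.62, -0.64, -0.84 and -0.88 with HIPP and at -0.998, -0.49, -0.01, -0.76 and -0.46 with P4. The means were 1.55-fold lower (-0.63 ± 0.28, adjusted p = 0.000817) and 1.46-fold lower (-0.55 ± 0.37, adjusted p = 0.00471). The probes did not share this size. Probe 1, at chr1:109989152-109989211, was at -1.50 ± 0.53 with HIPP and -1.23 ± 0.67 with P4, and its treated channel was not well above background on any array of either. Probe 2, at chr1:109991656-109991715, was at 0.0026 ± 0.12 and -0.08 ± 0.35. Probe 3 was at -0.39 ± 0.37 and -0.33 ± 0.53, and both it and probe 2 were well above background on every array. With normexp and loess neither call was kept (-0.18, adjusted p = 0.129, and -0.19, adjusted p = 0.103), and the P4 call was also lost with the slide as a block (-0.69, adjusted p = 0.101).

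MGST1 and MGST3, microsomal enzymes with transferase and peroxidase activity, moved apart after knockdown. MGST1 lay at -0.21, -0.40, -0.52, -0.52 and -0.60 on the shCtBP2 arrays (1.36-fold lower, -0.45 ± 0.15, adjusted p = 0.0132) and at 0.49, 0.83, 0.68, 0.53 and 0.59 on the P4 arrays (1.54-fold higher, 0.62 ± 0.13, adjusted p = 0.000647). The knockdown arrays were all below the control and the P4 arrays all above it. With the slide as a block neither was called (-0.12, adjusted p = 0.651, and 0.31, adjusted p = 0.269), and the knockdown call was also lost without shCtBP2 replicate 4 or 5. With HIPP it was 0.43 ± 0.32, removed by the variability filter and called with all 36 tested (adjusted p = 0.00472). MGST3 was higher on every array of all 3 treatments. It lay at 0.12, 0.62, 0.39, 0.78 and 0.73 after knockdown (1.44-fold, 0.53 ± 0.27, adjusted p = 0.0113) and at 0.57, 0.61, 0.85, 0.29 and 0.71 with HIPP (1.52-fold, 0.61 ± 0.21, adjusted p = 0.000884). With P4 it was 0.42 ± 0.31, likewise removed by the filter and called with all 36 tested (adjusted p = 0.0193). The knockdown call was lost with the slide as a block (0.52, adjusted p = 0.16) and without shCtBP2 replicate 4 or 5.

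GSTP1, the pi-class enzyme, rose by nearly the same amount with both compounds, 0.57 ± 0.22 with HIPP (1.48-fold, adjusted p = 0.000295) and 0.54 ± 0.24 with P4 (1.45-fold, adjusted p = 0.0011), and was above the control on every array of both. With the slide as a block the P4 call was lost (0.68, adjusted p = 0.0546). GSTM2 and GSTT1 gave no call, and their signals were often not well above background; GSTT1 was above it in 1 control channel only. GSTO1, GSTZ1 and MGST2 gave no call either, and their means lay between -0.13 and 0.26.

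**Figure D3:**
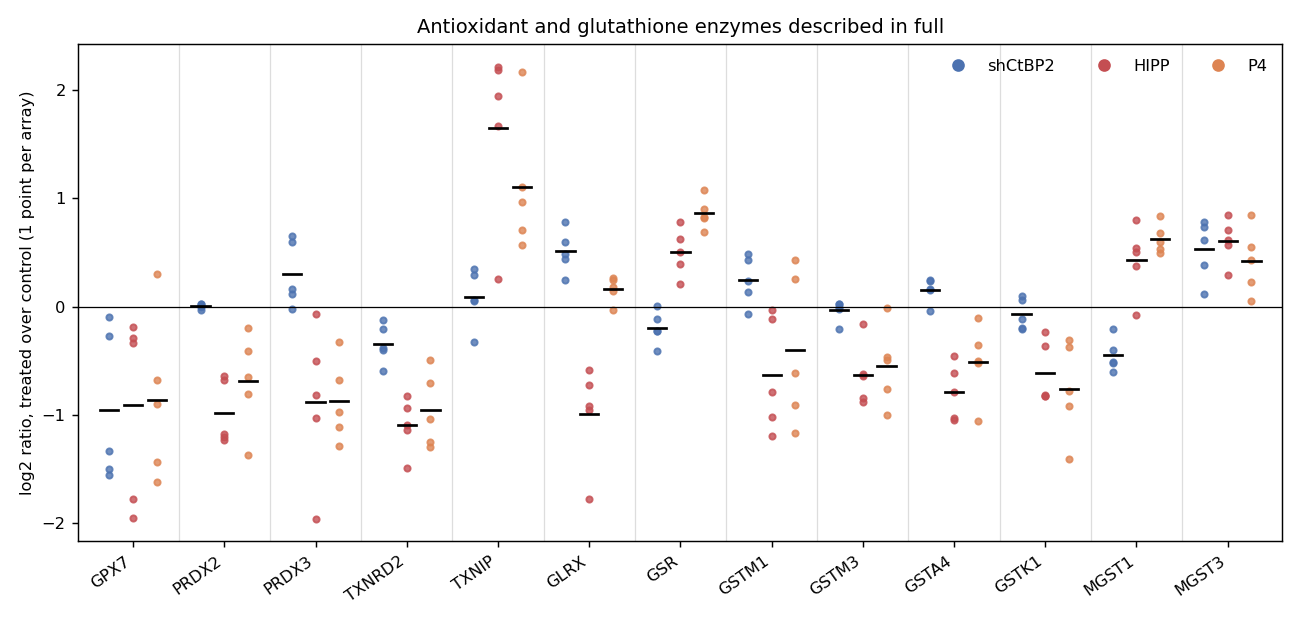
Log2 ratio of treated over control (y axis) of the 13 genes that were called with at least 1.5-fold and 1 direction on every array in at least 1 treatment (x axis), 1 point per array and a bar for the mean of 5. The HIPP and P4 points of PRDX2, GSTA4 and GSTK1 all lie below the shCtBP2 points, those of GSR all above them, and TXNIP has 1 HIPP array at 0.26 with the others from 1.66 up.

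The promoters of these genes were searched for TGACNNNGC, the core of the antioxidant response element, on both strands, from 250 bases before to 50 after the RefSeq start sites (build GRCh38.p14). A promoter was at hand for 28 of the 36 genes, all but SOD1, PRDX1, PRDX6, TXN2, GSR, GSS, GSTT1 and MGST2. It was found in 6 of their 41 promoters (GPX2, GSTA4, GSTM1, GSTO1, GSTP1 and MGST1), a share near that of all 35116 promoters, 13.3%. CACGTG, the E-box that reads the same on both strands, was in 4 of the 41 (GLRX2, GPX1, PRDX3 and PRDX4), against 7.26% of all promoters. The stretches of 4 transferases are shown, with the core in capitals, because these genes carry the same core and did not share a direction with the compounds:
GSTP1 chr11:67583736-67583765: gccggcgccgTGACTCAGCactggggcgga
MGST1 chr12:16347135-16347164: ggggacatcgTGACAAAGCaaattgtctgg
GSTM1 chr1:109687642-109687671: ctgggcgcccTGACTTCGCtcccggaaccc
GSTA4 chr6:52995274-52995303: ccgggaccgcTGACCTGGCgctttgtgcgg
GSTP1 rose with both compounds and MGST1 rose with P4, while GSTM1 fell with HIPP and GSTA4 fell with both. The capitals of GSTP1 also hold TGACTCA, the AP-1 motif, which overlaps the searched core. A match is only a stretch of letters, and binding was not measured.

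Whether the response itself differed between treatments was tested as a difference of the means in the same fit. Between HIPP and shCtBP2, 7 of 18 genes tested in both differed, against 26.3% of all genes. GLRX (-1.50), PRDX3 (-1.18), GSTA4 (-0.94), TXNRD2 (-0.75) and GSTM3 (-0.59) were lower with HIPP, and TXNIP (1.57) and PRDX6 (0.71) were higher. For GLRX the adjusted p was 4.16e-05 and the 95% interval ran from -1.90 to -1.09; for GSTM3 they were 0.0233 and -0.98 to -0.21. Arrays of both groups shared slide 3 (2 of each), where all 7 had the same direction, from 0.62 to 2.11 in size, with PRDX3 at -2.11 and GLRX at -2.05. With all 36 tested there were 13 calls, against 26.7% of all genes, the added ones being PRDX2 (-0.99), GPX1 (-0.45), MGST1 (0.87), GSR (0.69), GSTP1 (0.48) and TXN (0.42).

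Between P4 and shCtBP2, 5 of 19 genes tested in both differed, against 11.9% of all genes: MGST1 (1.07) and TXN (0.51) were higher with P4, and PRDX3 (-1.18), GSTA4 (-0.66) and TXNRD2 (-0.61) lower. For MGST1 the adjusted p was 0.000402 and the interval 0.75 to 1.40. With all 36 tested there were 10 calls, against 12.5% of all genes, GSR (1.06), GSTP1 (0.45), PRDX2 (-0.69), GSTK1 (-0.68) and SOD3 (-0.45) being added. No slide held arrays of both groups, so slide and treatment cannot be told apart within a slide here, and with the slide as a block 1 of the 19 was called. Without shCtBP2 replicate 5 or P4 replicate 1, 4 or 5, 3 were called.

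HIPP and P4, which differ in the group named above, were compared as these exposures, since the labels give no dose for the arrays. None of the 20 genes tested in both differed, against 10.5% of all genes; by limma 1, GSR, had an unadjusted p under 0.05 (-0.36, interval -0.64 to -0.08, adjusted p = 0.0992). After normexp and loess 3 of 22 differed, and 1 or 2 without HIPP replicate 4 or P4 replicate 1, 3, 4 or 5. The intervals bound what could have been missed in the mean over a gene's probes. They were -0.22 to 1.31 for TXNIP, -0.63 to 0.63 for PRDX3, -0.52 to 0.24 for TXNRD2 and -0.28 to 0.33 for GSTP1. For PRDX3 this mean joins probes that differed in opposite directions, so its interval bounds neither probe. With HIPP and P4, probe 1 was at 0.42 and -0.29, and probe 2 at -2.17 and -1.46. With all 36 tested, 2 differed, against 10.9% of all genes. GLRX was lower with HIPP by -1.15 (interval -1.56 to -0.74, adjusted p = 0.00175), and PRDX6 was higher by 0.58 (interval 0.34 to 0.82, adjusted p = 0.00461). The variability filter had removed both in P4. On slide 2, which held 3 HIPP arrays and 1 P4 array, the differences were -0.99 for GLRX and 0.31 for PRDX6.

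**Figure D4:**
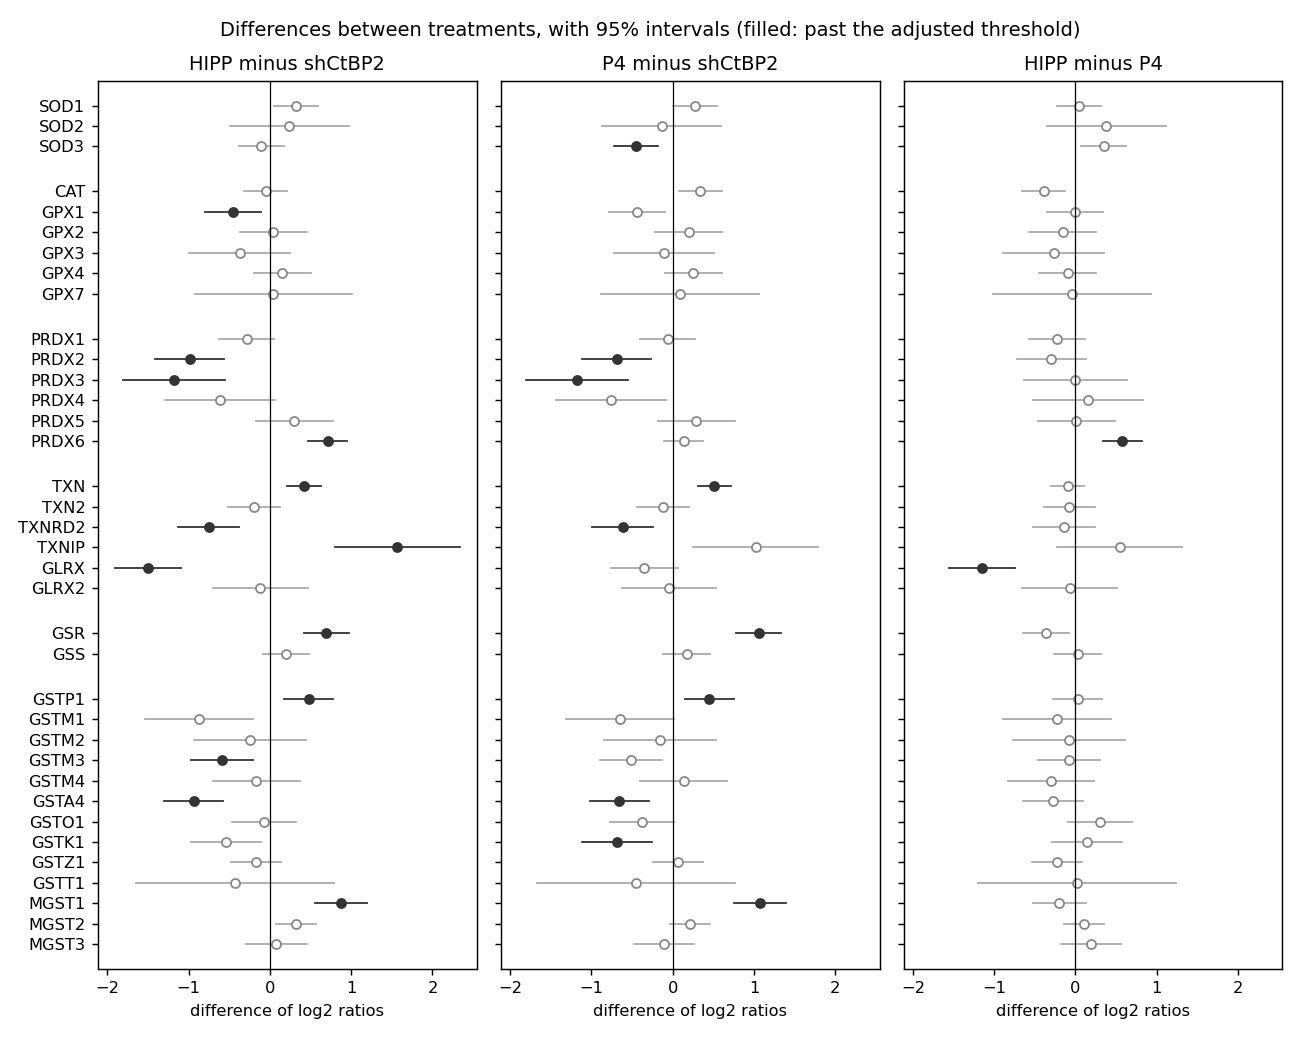
Difference of log2 ratios between treatments (x axis) for the 36 genes (y axis, by class), with 95% intervals, from the fit that tested all 36; filled points passed the adjusted threshold. The HIPP and P4 panels against shCtBP2 hold 13 and 10 filled points, and the panel of HIPP minus P4 holds GLRX at -1.15 and PRDX6 at 0.58.

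Of 13 other genes that make, take up or turn over glutathione and its building blocks, 1 rose and 4 fell after knockdown (12 tested), 7 rose and 4 fell with HIPP (12 tested), and 8 rose and 3 fell with P4 (13 tested), where 13.4%, 48.7% and 31.8% of all genes tested were called. CHAC1, which degrades glutathione, was at 1.49 ± 0.34 with HIPP and 1.79 ± 0.50 with P4. SLC3A2, the heavy chain of the cystine transporter, was at 1.37 ± 0.19 and 1.05 ± 0.24, and SLC7A11, its light chain, at 1.00 ± 0.27 with P4. After knockdown the genes of the gamma-glutamyltransferase family GGT1 (-0.73 ± 0.14), GGT7 (-0.73 ± 0.27) and GGT5 (-0.67 ± 0.24) were lower, but GGT7 was dim on most arrays and was not called with normexp and loess (-0.09, adjusted p = 0.0821). The list's median was -0.26 after knockdown, 0.61 with HIPP and 0.57 with P4, beside 0.023, 0.075 and 0.078 for all genes.

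Of 15 genes that supply NADPH, 1 rose and 2 fell after knockdown (12 tested), 3 rose and 6 fell with HIPP (10 tested), and 5 rose and 2 fell with P4 (13 tested), beside the same shares of all genes (13.4%, 48.7% and 31.8%). The medians were -0.12, -0.24 and -0.0056. Past both thresholds, ME3, mitochondrial malic enzyme, was lower with HIPP (-1.42 ± 0.41). With P4, MTHFD2, a mitochondrial enzyme of folate metabolism, was at 1.51 ± 0.21, ME1, cytosolic malic enzyme, at 0.97 ± 0.07, and IDH2, mitochondrial isocitrate dehydrogenase, at -0.90 ± 0.52.

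Of 24 further members of the enzyme families on the array, 4 rose and 3 fell after knockdown (19 tested), 5 rose and 6 fell with HIPP (22 tested), and 6 rose and 4 fell with P4 (20 tested). With HIPP, 11 of 22 called is near the 48.7% of all genes (13.4% after knockdown and 31.8% with P4), and the medians were -0.04, -0.03 and 0.05. ARRDC4, an arrestin-domain protein related to TXNIP, rose 3.23-fold with HIPP and 2.82-fold with P4 (SD 0.79 and 0.18 on the log2 scale). TXNRD1, the cytosolic thioredoxin reductase, was at 0.93 ± 0.69 with P4 (adjusted p = 0.0155), where the mitochondrial TXNRD2 was lower. PTGES, a prostaglandin synthase related to the microsomal transferases, was at -0.98 ± 0.27 with P4. After knockdown GSTO2 was at 1.42 ± 0.33, and GSTM5 (-0.79 ± 0.25) and NXN (-0.69 ± 0.36) were lower but not called with normexp and loess (-0.08 and -0.21). With that processing GSTO2, ARRDC4 and PTGES kept their calls at smaller sizes (0.53 for GSTO2, 0.59 with HIPP and 0.63 with P4 for ARRDC4, -0.33 for PTGES).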

How the data were processed

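Total RNA of MDA-MB-231 cells was amplified, labelled and hybridised by the authors to 15 Agilent 2-colour arrays of 60-base probes. The deposited scanner files hold intensity per spot, made with Feature Extraction 9.5.3.1, per the file headers; the red and green processed signals were background-subtracted and dye-normalised by the authors. The deposited value table of the series holds log10 ratios and was used as an alternative.

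Here, log2 ratios of the red (treated) over the green (control) processed signal were taken; 78 to 265 spots per array flagged as outliers or non-uniform were dropped, and 43376 gene spots were averaged to 41000 probes and 30992 genes. The treated channel was well above background on 65.2% to 77.5% of spots and the control channel on 64.9% to 81.0%, and the number of arrays limits the precision. Gene symbols follow the RefSeq table through accessions (23434 probes), names (2317) or synonyms (1040), and otherwise the array's own name (14209). Genes on at least 3 arrays were kept and, as in the methods, the 11% with the lowest interquartile range in a treatment removed, which left 27582. All arrays entered 1 limma 3.58.1 fit (R 4.3.3), with a mean per treatment tested against 0 and Benjamini-Hochberg adjustment; differences were contrasts of that fit. The methods' t-test was run on the same genes and adjusted over all of them, whereas the methods first removed genes under the fold threshold. The scripts were tested on simulated data.

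The labels call the 5 replicates of a treatment biological. No array column was left without a sample. The arrays lay on 4 slides scanned on 2 days. Slide 1 held P4 replicates 1 to 4, and slide 2 held P4 replicate 5 with HIPP 1 to 3. Slide 3 held HIPP 4 and 5 with shCtBP2 1 and 2, and slide 4 held shCtBP2 3 to 5. Slide 1 was scanned on day 1 and the other slides on day 2, so scan day cannot be told apart from slide 1, which held only P4.

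The genes, lists and rules were chosen with earlier results of these data known. Described in full are genes called with at least 1.5-fold and 1 direction on every array in a treatment; the others are given by range and count with up to 2 examples a class (the largest and smallest ratios), and of the pathway lists the 3 largest past both thresholds. Genes outside this rule that a count of few genes or a difference rests on were named after their values were seen.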

Additional observations from a re-analysis of the deposited data

Results flagged for a closer look

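In 2 of the 108 sets of 5 arrays (36 genes in 3 treatments) 1 array lay far from the others; chance flags about 1 set in 20. TXNIP on HIPP replicate 4 was at 0.26, with the other arrays from 1.66 to 2.21. GSTM3 on shCtBP2 replicate 4 was at -0.21, with the others from -0.02 to 0.03. The cause was not tested in either.

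The response of 12 gene and treatment pairs differed in a test of the difference. HIPP minus shCtBP2 was -1.18 for PRDX3, 0.71 for PRDX6, -0.75 for TXNRD2, 1.57 for TXNIP, -1.50 for GLRX, -0.59 for GSTM3 and -0.94 for GSTA4. P4 minus shCtBP2 was -1.18 for PRDX3, 0.51 for TXN, -0.61 for TXNRD2, -0.66 for GSTA4 and 1.07 for MGST1. Both sets of differences share the shCtBP2 arrays.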

How the results depend on the processing

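For the 13 genes described in full, no called value changed direction in a setting that tested it. The brightest probe of GSTM3 was at 0.0026 with HIPP, where the mean over probes was called lower, but it was not tested there. Direction changed in 8 values that were not called, of GPX7 with P4 and of PRDX2 and GSTM3 after knockdown. In all, 765 values stayed on their side of the threshold or within the spread, 47 lost a call, 10 gained one and 13 that were not called moved by more than the spread between arrays. After knockdown the 5 called genes became 3 with the slide as a block (GLRX, with PRDX3 and PRDX6 as new calls), 2 with the methods' t-test, and 2 to 6 when an array was left out, the lowest without shCtBP2 replicate 4 or 5. With HIPP the 18 became 12 with normexp and loess or the slide as a block, 9 with the methods' t-test and 16 to 20 with an array left out. With P4 the 13 became 7 with signals centred on the array median, 7 with each treatment fitted on its own arrays, 5 with the slide as a block, 4 with the methods' t-test and 11 to 14 with an array left out. Past both thresholds, the 0 genes of shCtBP2 became 1 with centred signals, the series' value table, the brightest probe or the replicate block, 2 with the slide as a block, and 0 to 1 with an array left out. The 1 gene of HIPP became 2 with centred signals, 3 with the brightest probe, 11 at 1.5-fold and stayed at 1 with any array left out. The 4 genes of P4 became 1 with normexp and loess, 8 at 1.5-fold and 2 to 5 with an array left out; without P4 replicate 5, GSR (0.81) and PRDX3 (-0.77) fell under the fold threshold. Of the differences, the 7 of HIPP minus shCtBP2 became 13 without the variability filter, 11 with only probes well above background and 5 to 10 with an array left out. The 5 of P4 minus shCtBP2 became 11 with normexp and loess, 10 without the filter, 10 with bright probes only, 3 with centred signals, 1 with the slide as a block and 3 to 7 with an array left out (the lowest without shCtBP2 replicate 5 or P4 replicate 1, 4 or 5). The 0 of HIPP minus P4 became 3 with normexp and loess, 1 with centred signals, 2 without the filter, 1 with bright probes only and 0 to 2 with an array left out (1 without HIPP replicate 4 or P4 replicate 3, 2 without P4 replicate 1, 4 or 5). The cause of these shifts was not tested, beyond the smaller number of arrays or the other number of genes tested. The main fit did not pair arrays by replicate number, and whether the numbers mark a pairing was not settled. Same-numbered arrays of different treatments correlated over 0.1 in 13 of 15 pairs (-0.0097 to 0.46). All 5 pairs of shCtBP2 and P4 were over 0.1, from 0.14 to 0.34. Of the 15 arrays, 3 correlated best with their own number in both other treatments. With the replicate block the calls were 6, 20 and 15, those past both thresholds 1, 1 and 5, and the differences 8, 6 and 0; GPX7 was then called after knockdown (adjusted p = 0.0149). Of the genes described in full, the methods' t-test ended the calls of GPX7, GSR and GSTM1 with HIPP, PRDX2 and GSTA4 with P4, PRDX3, GSTM3 and GSTK1 with both, and GLRX and MGST3 after knockdown.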

Other observations

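On the P4 arrays, 17 of the 36 genes had replicates 1, 4 and 5 all below replicates 2 and 3, while 17.9% of all genes measured on the 5 arrays did. The 17 were PRDX1, PRDX2, PRDX3, PRDX4, TXN2, TXNRD2, TXNIP, GLRX2, GPX3, GSTA4, GSTK1, GSTM1, GSTM2, GSTO1, GSTZ1, MGST1 and MGST3. The opposite order held for 1 of the 36 and for 16.7% of all genes. Replicates 1 to 4 lay on 1 slide and replicate 5 on another. The order was noticed in the values of these genes, and its cause was not tested.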
